A study of Mus musculus with 6 samples.

Results

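The genes of the mitochondrial ribosomal proteins were compared between WT and hnRNPL-deficient mouse B cells. They were taken by name, as every gene whose symbol is *Mrpl* or *Mrps* followed by a number and at most 1 letter, which gave 78 of the 55421 genes listed. The libraries come from splenic B cells activated ex vivo for 24 h with LPS (5 µg/ml) and IL-4 (5 ng/ml). Both groups carried *CD21-cre*, which deletes mostly in mature B cells, and the Rosa mT/mG reporter, by which cells turn from tdTomato to GFP once Cre has acted. WT cells were *CD21-cre* and hnRNPL-deficient cells were *CD21-cre Hnrnpl F/F*, on a C57BL6/J background. The study states in general that it used both sexes, aged over 6 weeks. The sex of the mice behind each library is not given. GFP+ cells were sorted, poly(A) RNA was sequenced in 3 libraries per genotype, described by the study as biological replicates.

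Mitochondria have their own ribosome, which translates the few proteins encoded by mitochondrial DNA, all of them subunits of the respiratory chain and of ATP synthase. Its ribosomal RNAs come from the mitochondrial genome, while all its proteins are encoded by nuclear genes, made in the cytosol and imported. The large subunit (MRPL proteins) forms peptide bonds and the small subunit (MRPS proteins) reads the messenger RNA. Some of the proteins have a counterpart in the bacterial ribosome, and the others are found only in mitochondria. B cells enlarge and increase their mitochondrial mass and respiration when they are activated.

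Values are normalized counts, which are reads per gene divided by a size factor for each library. The libraries held between 40395186 and 75180749 reads on genes, and hnRNPL-deficient library 3 was the shallowest. The members together took between 98920 and 195837 reads per library, which was 0.260% to 0.270% of all reads on genes in WT and 0.245% to 0.267% in hnRNPL-deficient libraries. *Hnrnpl* itself had 24371, 25580 and 24174 normalized counts in WT libraries 1, 2 and 3 and 2178, 1519 and 1297 in hnRNPL-deficient libraries 1, 2 and 3, which was 6.74% of the WT mean. B cell markers summed to between 475533 and 590976 normalized counts in WT, and 474071 to 531491 in hnRNPL-deficient libraries. Plasma cell markers summed to 14221 to 16488 and 13373 to 16508. Myeloid markers summed to 260 to 331 in WT and to 1239 to 1382 in hnRNPL-deficient libraries. That sum was almost wholly *Adgre1*, with a mean of 278 and 1308 normalized counts (adjusted p = 1.39e-04 from limma), whereas *Lyz2* and *Cd14* were at 0 to 2.02, *Csf1r* at 1.73 to 6.85 and *Itgam* at 5.48 to 18.6 across the 6 libraries. Summed markers of T cells (17.4 to 27.7 in WT, 27.3 to 37.0 in hnRNPL-deficient), NK cells (0 to 1.53 and 2.7 to 4.11), neutrophils (0 to 0.765 and 0) and erythroid cells (5.19 to 18.6 and 16.2 to 27.3) stayed far below the level of a single member gene.

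Of the 78 members, 77 passed the filter of a mean of at least 10 normalized counts. The remaining one, *Mrpl53*, was listed at 0 in all 6 libraries. In the annotation, 88.0% of its exon bases are shared on the same strand with *Gm42688* (8.11 to 19.2 normalized counts in the 6 libraries). Whether its reads were set aside for that overlap was not tested. The 77 members had means from 271 (*Mrps6*) to 4283 (*Mrpl19*) normalized counts. In these whole-population libraries, fewer transcripts per cell and a different mix of cells cannot be told apart.

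Transcripts of the mitochondrial ribosome differed little in level between WT and hnRNPL-deficient cells. None of the 77 members changed by 1.5-fold or more at an adjusted p under 0.1 (limma), in either direction, and edgeR and DESeq2 on the reads of 5 libraries also called 0. Among all 17640 genes tested, 4.08% were lower and 7.28% were higher by this rule. At an adjusted p under 0.1 and any size of change, 4 members fell, which was 5.19% of them against 7.97% of all genes, and 1 member rose, which was 1.30% against 10.0%. At an unadjusted p under 0.05 there were 11 of 77 members, against 4830 of 17640 genes.

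Log2 fold changes of the members (hnRNPL-deficient minus WT, on the log2(normalized count + 1) scale) ran from -0.54 to 0.43, with quartiles of -0.21 and 0.06. All genes tested had quartiles of -0.28 and 0.28. For 58 members, or 75.3%, the 95% interval of the fold change lay wholly within 1.5-fold of WT. The same held for 34.4% of all genes tested and for 51.4% of the 7645 genes with a mean in the range of the members. Of the other members, 15 had an interval that included a 1.5-fold fall and 4 had one that included a 1.5-fold rise.

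**Figure D1:**
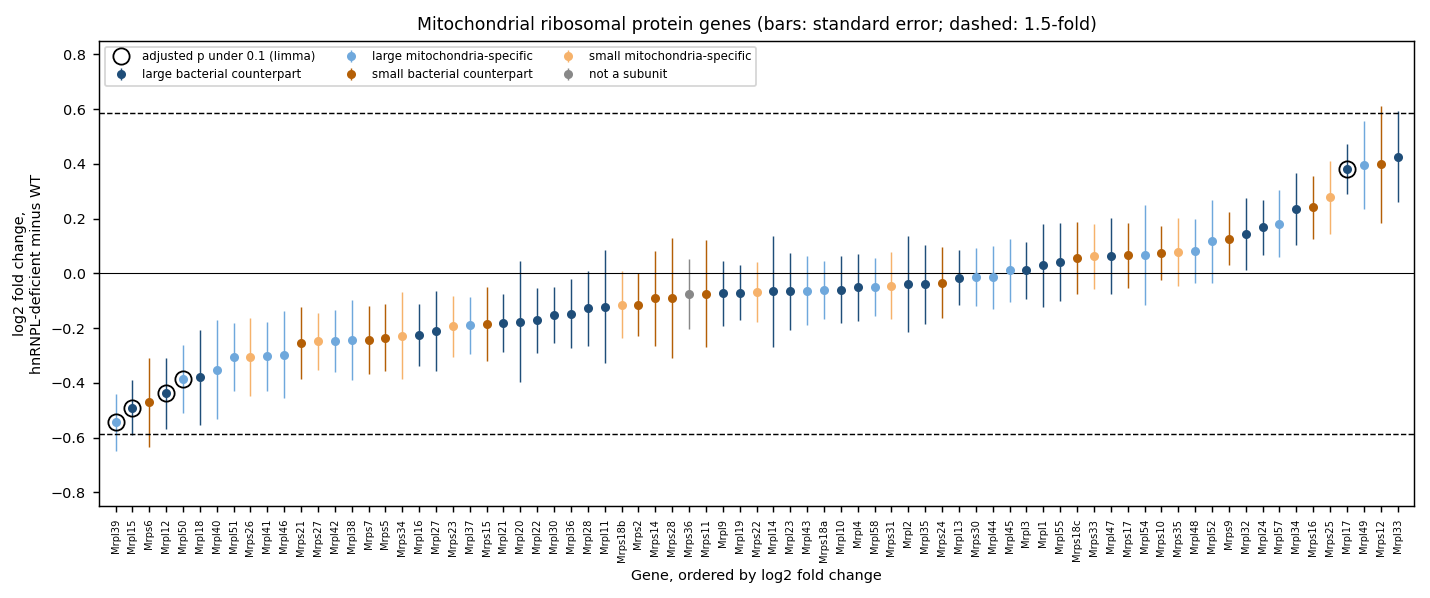
Log2 fold change of each of the 77 tested members, ordered along the x axis, with the limma standard error as bars; colours give the subunit and whether the protein has a bacterial counterpart, dashed lines mark 1.5-fold and rings mark the 5 members with an adjusted p under 0.1. All points lie between the dashed lines, from *Mrpl39* at -0.54 to *Mrpl33* at 0.43.

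The members that fell were all proteins of the large subunit, which holds 50 of the 77 tested members. *Mrpl39* had 3397, 3250.1 and 3054 normalized counts in WT libraries 1, 2 and 3 and 2394, 2241 and 2031 in hnRNPL-deficient libraries 1, 2 and 3. The lowest WT library was above the highest hnRNPL-deficient one. The fold change was -0.54 on the log2 scale (limma standard error, SE, 0.104; limma adjusted p = 0.0142), or 68.7% of WT. MRPL39 is specific to mitochondria and has a domain resembling that of threonyl-tRNA synthetases. The gene (chromosome 16, 84717576 to 84735742, minus strand, GRCm38) was called under all 18 alternative settings tried, with a fold change between -0.63 and -0.48.

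*Mrpl15*, which encodes a large subunit protein with a bacterial counterpart (uL15), had 4759, 4423 and 3978 normalized counts in WT, and 3233, 3086 and 3028 in hnRNPL-deficient libraries. The groups did not overlap, and the hnRNPL-deficient libraries were close together. The fold change was -0.49 (SE 0.101, limma adjusted p = 0.0188). *Mrpl15* (chromosome 1, 4773206 to 4785739, minus strand) was also called under all 18 alternatives.

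*Mrpl12* encodes the mitochondrial L7/L12 stalk protein, which contacts translation factors on the ribosome and has also been found bound to the mitochondrial RNA polymerase. It had 4615, 5132 and 4713 normalized counts in WT, and 3658, 4122 and 2980 in hnRNPL-deficient libraries. All 3 hnRNPL-deficient libraries were below WT, and their SD (575) was larger than that of WT (275). The fold change was -0.44 (SE 0.130, limma adjusted p = 0.0645). The call for *Mrpl12* (chromosome 11, 120484613 to 120489065, plus strand) held under 12 of 18 alternatives. It was lost with quantile normalization (-0.34, adjusted p = 0.110), with no mean-variance trend (-0.44, adjusted p = 0.143), without WT library 2 (-0.39, adjusted p = 0.186), without WT library 3 (-0.45, adjusted p = 0.154), without hnRNPL-deficient library 1 (-0.46, adjusted p = 0.123) and without hnRNPL-deficient library 3 (-0.31, adjusted p = 0.122).

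*Mrpl50*, another protein found only in mitochondria, had 1863, 1801 and 1497 normalized counts in WT, and 1396, 1332 and 1209 in hnRNPL-deficient libraries. The groups did not overlap, but WT library 3 was closer to hnRNPL-deficient library 1 than to the other WT libraries. The fold change was -0.39 (SE 0.124, limma adjusted p = 0.0824). This was the least stable of the calls: *Mrpl50* (chromosome 4, 49512596 to 49521093, minus strand) was called under 9 of 18 alternatives. It was lost with no filter (adjusted p = 0.118), no mean-variance trend (0.144), edgeR (0.122) and DESeq2 (0.1501), and its adjusted p was between 0.124 and 0.221 when WT library 1 or 2, or any of the hnRNPL-deficient libraries, was left out.

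The member that rose, *Mrpl17*, also encodes a large subunit protein with a bacterial counterpart (bL17), which lies near the exit of the peptide tunnel. It had 2148, 2313 and 2183 normalized counts in WT, and 2900.3, 2879 and 2867 in hnRNPL-deficient libraries. The hnRNPL-deficient libraries differed from each other by far less than they did from WT (SD of 16.7 against 86.8 in WT). The fold change was 0.38 (SE 0.0909, limma adjusted p = 0.0324), or 130% of WT. *Mrpl17* (chromosome 7, 105803206 to 105811099, minus strand) was called under 16 of 18 alternatives, the exceptions being without WT library 3 (0.37, adjusted p = 0.120) and without hnRNPL-deficient library 1 (0.38, adjusted p = 0.101).

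**Figure D2:**
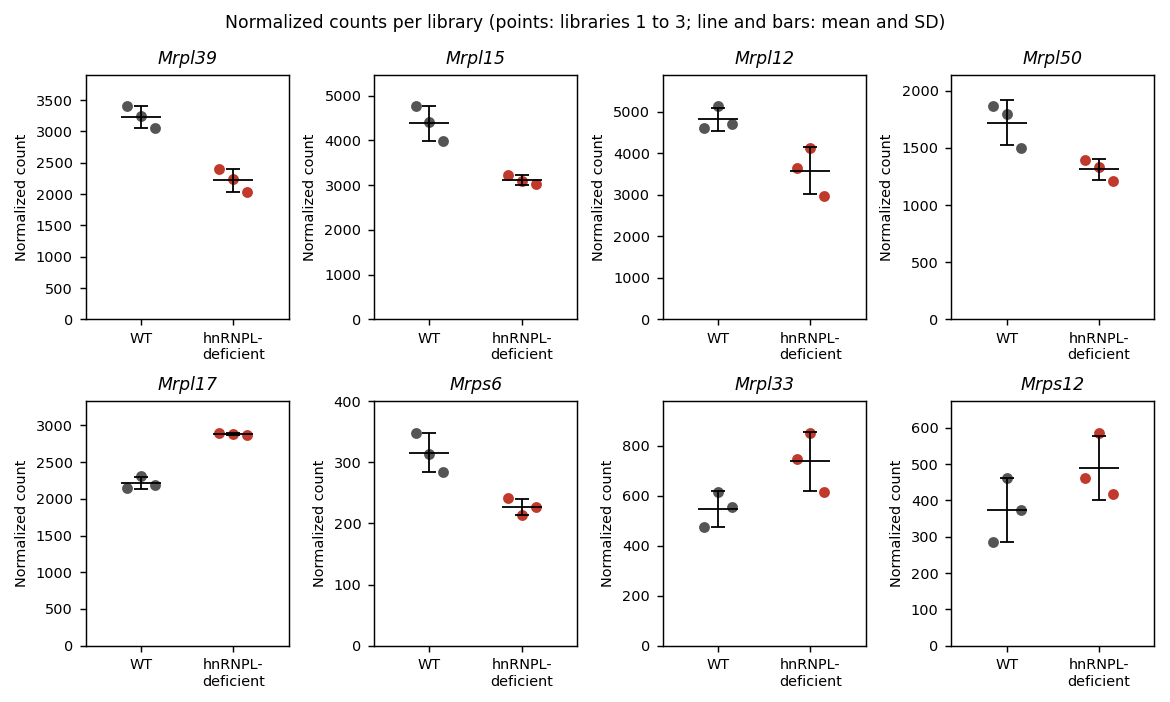
Normalized counts (y axes, from 0) of 8 members in WT and hnRNPL-deficient cells; points are libraries 1 to 3 from left to right, lines are means and bars are SDs (n = 3 each). *Mrpl39*, *Mrpl15*, *Mrpl12*, *Mrpl50* and *Mrps6* are lower and *Mrpl17* is higher with no overlap between the groups, whereas the groups overlap for *Mrpl33* and *Mrps12*.

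Other members at the ends of the range did not pass the test. *Mrps6*, a small subunit protein with a bacterial counterpart (bS6), had 348, 314 and 284 normalized counts in WT, and 241, 214 and 226 in hnRNPL-deficient libraries. The groups did not overlap, and the fold change of -0.47 (SE 0.162) had an adjusted p of 0.102 from limma. It crossed the threshold of 0.1 under 6 alternatives, among them a filter at a mean of 50 (adjusted p = 0.0928), quantile normalization (0.0636) and no mean-variance trend (0.0768). The exons of *Mrps6* share 19.9% of their bases on the same strand with *Slc5a3* and *Gm49711*, so its count is uncertain.

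At the upper end, *Mrpl33* had 473, 616 and 553 normalized counts in WT, and 747, 851 and 615 in hnRNPL-deficient libraries (0.43, SE 0.167, limma adjusted p = 0.141). *Mrpl49* had 1064, 1314 and 1104 in WT and 1607, 1789 and 1223 in hnRNPL-deficient libraries (0.40, SE 0.162, limma adjusted p = 0.156). In both genes hnRNPL-deficient library 3 was the one that overlapped WT, and without it the adjusted p was 0.0841 for *Mrpl33* (0.55) and 0.0533 for *Mrpl49* (0.55). *Mrps25* had a fold change of 0.28 (SE 0.133, limma adjusted p = 0.217), and its groups also overlapped.

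*Mrps12* encodes uS12m, which lies at the decoding centre of the small subunit. It had 284, 462 and 375 normalized counts in WT, and 462, 587 and 417 in hnRNPL-deficient libraries. The groups overlapped (374 ± 88.7 and 488 ± 88.1, mean ± SD), and the fold change of 0.40 (SE 0.214) had an adjusted p of 0.271 from limma. *Mrps12* lies 66.7 kb from *Hnrnpl* on chromosome 7. It is transcribed away from *Sars2*, the mitochondrial seryl-tRNA synthetase, which had 603 ± 131 normalized counts (mean ± SD, n = 3) in WT against 790.3 ± 178 without hnRNPL (n = 3; log2 fold change 0.39, adjusted p = 0.286 from limma).

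When the groups of libraries were compared for overlap, all 3 hnRNPL-deficient libraries were below all 3 WT libraries for 14 members, or 18.2%, against 16.3% of all genes tested. All 3 were above WT for 3 members, or 3.90%, against 17.7% of all genes. Besides *Mrpl17* these were *Mrps9* (1946, 1975 and 1951 in WT, 2005, 2193 and 2219 in hnRNPL-deficient libraries, adjusted p = 0.434 from limma) and *Mrps16* (1237, 1187 and 1237 in WT, 1549.7, 1508 and 1284 in hnRNPL-deficient libraries, adjusted p = 0.213 from limma), which are named after their values were seen. The exact permutation test of a single gene with 3 libraries against 3 cannot give a p below 0.1.

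Both subunits had medians close to that of all members. In the large subunit, 35 of 50 tested members had a fold change below 0, 4 fell and 1 rose, and the median was -0.06. In the small subunit, 17 of 26 were below 0, the median was -0.08 and 0 were called. The 30 large subunit proteins with a bacterial counterpart had a median of -0.07 and the 20 found only in mitochondria one of -0.06. For the small subunit the medians were -0.08 (16 genes) and -0.09 (10 genes). All genes tested had a median of -0.03.

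Several members have a place that their name does not show. *Mrps30* and *Mrps18a* are named after the small subunit, but their proteins sit in the large one. *Mrps30* was at 2779 ± 277 normalized counts (mean ± SD, n = 3) in WT against 2744 ± 104 without hnRNPL (n = 3; -0.01, adjusted p = 0.945 from limma), the closest of these to no difference. *Mrps18a* had a fold change of -0.06 (adjusted p = 0.744 from limma), and its paralogs *Mrps18b* and *Mrps18c*, both in the small subunit, had -0.11 (adjusted p = 0.580 from limma) and 0.06 (adjusted p = 0.817 from limma). *Mrps18c* shares 23.2% of its exon bases with a neighbouring gene model on the same strand.

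*Mrpl58* encodes a peptidyl-tRNA hydrolase that frees stalled chains and is built into the large subunit. Its level was 1502 ± 33.8 normalized counts (mean ± SD, n = 3) in WT against 1454 ± 116 without hnRNPL (n = 3; -0.05, adjusted p = 0.801 from limma). *Mrps36*, now assigned to the 2-oxoglutarate dehydrogenase complex of the citric acid cycle, was at 1653 ± 70.6 and 1581 ± 220.2 (-0.07, adjusted p = 0.746 from limma). The 95% interval of each of these 6 genes lay within 1.5-fold of WT. Reads of *Mrps36*, *Mrpl23* and *Mrpl48* could be shared with their pseudogenes. Of the 5 pseudogenes in the table, *Mrps36-ps1* and *Mrps36-ps2* had 142 to 344 normalized counts, *Mrpl23-ps1* had 681 to 816 and *Mrpl48-ps* had 178 to 256.

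Although the ribosome holds 1 copy of most of these proteins, their transcript levels spanned a wide range. Per kilobase of exon in the annotation, WT cells had 3470 ± 334 normalized counts of *Mrps21*, a small protein of the small subunit (SD, n = 3). *Mrpl12*, whose protein is present in several copies per ribosome, followed at 3146 ± 179. These top values overlap within their spread. The next were *Mrpl34* (2520 ± 109), *Mrps15* (2255 ± 295) and *Mrpl41* (2227 ± 274). *Mrpl34* was below *Mrpl12* by more than their spread, whereas *Mrps15* overlapped both *Mrpl34* and *Mrpl41* within their spread. *Mrps21*, *Mrps15* and *Mrpl41* had fold changes of -0.25 (adjusted p = 0.253 from limma), -0.18 (adjusted p = 0.413) and -0.30 (adjusted p = 0.160), and *Mrpl34* had 0.24 (adjusted p = 0.292). The lowest by the mean of all 6 libraries were *Mrps6* (206 ± 20.8), *Mrps25* (155 ± 17) and *Mrpl33* (74.7 ± 9.72), given here by their WT levels. These per kilobase levels divide by all annotated exon bases, 7326 for *Mrpl33* and 6576 for *Mrps25* against 739 for *Mrps21*, so the level depends on which exons the annotation lists.

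The 6 libraries did not contribute evenly to the small shift of the members. Set against the WT mean of each gene on the log2 scale, the median member was at 0.04, 0.02 and -0.07 in WT libraries 1, 2 and 3. It was at 0.02, -0.01 and -0.26 in hnRNPL-deficient libraries 1, 2 and 3. By this median, only hnRNPL-deficient library 3 stood outside the range of the WT libraries. In it 61 of 77 members were below the WT mean, against 33 in hnRNPL-deficient library 1 and 40 in library 2. In WT library 3, 68 of 77 members were below the WT mean, by smaller amounts at the median, against 30 in WT library 1 and 27 in WT library 2.

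Library 3 was the lowest hnRNPL-deficient library for 64 of the 77 members, and for 41.1% of all genes tested. Its median over all genes was -0.01. The median cytosolic ribosomal protein gene was at -0.38 and the median nuclear-encoded respiratory chain gene at -0.25 in the same library, so these gene groups were low there as well. With all libraries, 53 members had a fold change below 0 and the median was -0.07. Without hnRNPL-deficient library 3, 36 members were below 0, 41 were above, and the median was 0.02. With libraries scaled to equal totals, 44 members were below 0 and the median was -0.01.

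In library 3 the deviation of a member from WT ran with the GC content of its transcript (Spearman's rho -0.37 across the 77 members, which share the library) and with its exon length (0.36). The rho with GC content was -0.26 and 0.18 in hnRNPL-deficient libraries 1 and 2, so its sign and size varied within that group. It was -0.45, 0.38 and 0.36 in WT libraries 1, 2 and 3. Deviations from the WT mean cancel out over the WT libraries, so differing signs among them are largely built in. The part of depth and of base composition in the shift was not tested.

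**Figure D3:**
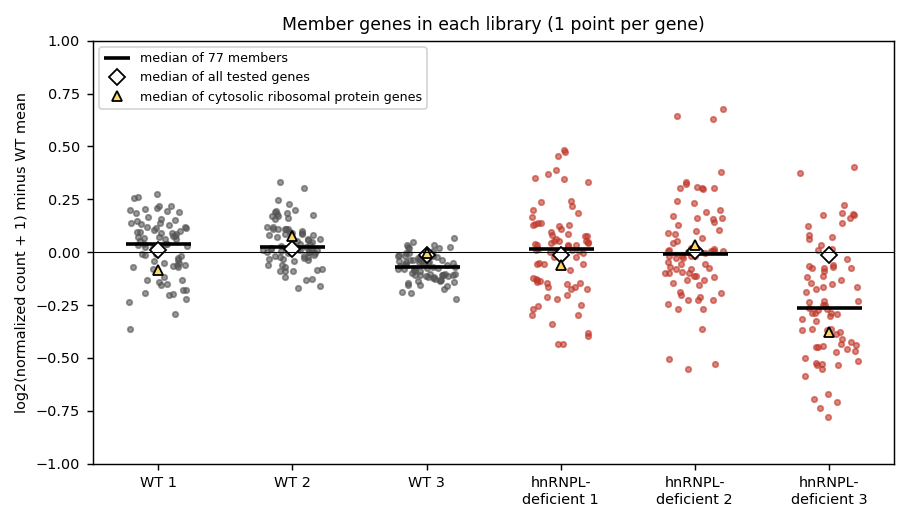
Each of the 77 members in each library (1 point per gene, y axis: log2(normalized count + 1) minus the mean of the WT libraries), with the median of the members as a bar, of all tested genes as a diamond and of the cytosolic ribosomal protein genes as a triangle. The members centre near 0 in 5 libraries, between -0.07 and 0.04, and at -0.26 in hnRNPL-deficient library 3.

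Promoters of nuclear genes for mitochondrial proteins often hold sites for the activators NRF1 and GABPA (an ETS factor) or for YY1, and MYC binds E-boxes. The stretches before the start of the called genes are shown to give these letters their context. They are RefSeq sequence on GRCm38.p6, 5′ to 3′ on the strand of the gene. Except for *Mrpl39*, they hold no annotated exon bases. The window of *Mrpl39* lies in its first exon in GENCODE, so only the match with 10 bases on each side is given. Capitals mark motif matches.
Mrpl39 (chr16:84735350-84735379, minus strand): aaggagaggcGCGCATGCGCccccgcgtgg
Mrpl12 (chr11:120484387-120484612, plus strand): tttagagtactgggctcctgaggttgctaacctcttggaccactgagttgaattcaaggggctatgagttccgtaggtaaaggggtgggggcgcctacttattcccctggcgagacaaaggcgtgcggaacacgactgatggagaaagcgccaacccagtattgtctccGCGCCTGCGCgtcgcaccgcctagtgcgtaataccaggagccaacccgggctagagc
Mrpl50 (chr4:49521094-49521175, minus strand): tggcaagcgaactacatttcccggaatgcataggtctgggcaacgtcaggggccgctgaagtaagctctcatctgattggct
Mrpl17 (chr7:105811100-105811337, minus strand): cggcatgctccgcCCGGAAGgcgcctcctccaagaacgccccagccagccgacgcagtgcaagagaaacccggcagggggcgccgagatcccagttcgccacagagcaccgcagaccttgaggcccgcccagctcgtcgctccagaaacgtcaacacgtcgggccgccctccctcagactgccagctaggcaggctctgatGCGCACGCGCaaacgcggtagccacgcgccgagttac

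The NRF1 motif searched was GCGCA, any base, GCGC, on both strands. *Mrpl39* and *Mrpl12*, which fell, and *Mrpl17*, which rose, all held it, at 125, 81 and 49 bases before the RefSeq start. For *Mrpl39* this place lies after the start of the gene in GENCODE. *Mrpl17* also held the ETS motif (CCGGAAG) at 237 bases before the start. The *Mrpl50* stretch is the space between its start and that of *Zfp189* on the other strand, and held none of the motifs. *Mrpl15* is among the 9 tested members with no entry.

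Over the window from 250 bases before to 50 after the start, 13 of 68 members with an entry (19.1%) held the NRF1 motif, against 12% of 9785 tested genes and 5.19% of all 27025 genes in the table. The ETS motif was in 25 members (36.8%), against 21.3% and 9.93%. The YY1 motif, AAGATGG directly followed by CGGC, was in 5 members (7.35%), against 1.91% and 0.755%. The E-box CACGTG, which none of the other motifs contains, was in 5 members (7.35%), against 12% of tested genes and 8.09% of all. A match is a stretch of letters and does not show binding.

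Median fold changes with and without the NRF1, ETS and YY1 letters lay close together. The 13 members with the NRF1 motif and the 55 without it both had a median log2 fold change of -0.07. With the ETS motif the median was -0.06 (25 members), and without it -0.07 (43 members). The 5 members with the YY1 motif, all below 0, had a median of -0.07. So did the 63 without it, of which 41 were below 0. The 5 with an E-box ran from -0.19 to 0.06, with 4 below 0 and a median of -0.15. The 63 without an E-box had 42 below 0 and a median of -0.07. Whether sets of 5 genes differ from the rest was not tested.

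Many members share a start region with a gene on the other strand. A protein-coding gene began head to head, within 1000 bases upstream or overlapping by up to 300, for 23 of 77 members (29.9%), against 14.3% of 11560 tested protein-coding genes. The partners included *Psma2* (*Mrpl32*), a proteasome subunit, *Fau* (*Mrpl49*), which encodes a cytosolic ribosomal protein, and *Ndufs6* (*Mrpl36*), a complex I subunit. The 23 members had a median log2 fold change of -0.15 with 1 call, *Mrpl50*, and the other 54 had a median of -0.06 with 4 calls.

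The other genes needed for mitochondrial translation were followed in 3 lists with 44 tested genes. They comprised further ribosomal subunits, assembly factors, and factors that translate or handle the messenger RNA. At an adjusted p under 0.1, 3 of the 44 fell and 3 rose. Together these were 13.6% of the lists, against 18.0% of all genes tested, so the lists held no excess of calls. The further subunits *Dap3*, *Ptcd3*, *Chchd1*, *Gadd45gip1* and *Aurkaip1* had 0 of 5 called, with all 5 below 0 and a median of -0.20. Of 25 assembly factors 16 were below 0, 1 rose, and the median was -0.07. Of 14 translation factors 3 fell and 2 rose, and the median was 0.02. These calls were 35.7% of that list, above the 18.0% of all genes. Whether a list of this size differs from the rest was not tested.

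*Lrpprc* and *Slirp* encode the partners of a complex that binds mitochondrial messenger RNAs and keeps them stable and polyadenylated, and both fell. *Lrpprc* had 10192, 10959 and 9867 normalized counts in WT, and 7322, 7132 and 6238 in hnRNPL-deficient libraries. The groups lay far apart, and the fold change of -0.59 (SE 0.0998, limma adjusted p = 0.00880) was the only fall of at least 1.5-fold among the 44 genes. Its call at 1.5-fold was lost, with the direction kept, with libraries scaled to equal totals or quantile normalized, and without WT library 2 or hnRNPL-deficient library 3. *Slirp* had 1078, 1207 and 1065 in WT and 884, 867 and 672 in hnRNPL-deficient libraries (-0.48, SE 0.142, limma adjusted p = 0.0667). The groups did not overlap, and hnRNPL-deficient library 3 was the lowest; without it the adjusted p was 0.128, with no mean-variance trend it was 0.114, and without WT library 1, 2 or 3 or hnRNPL-deficient library 2 it was 0.103, 0.200, 0.149 and 0.1001.

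*Gfm1*, the mitochondrial elongation factor G1 that moves the ribosome along, had 8091, 7055 and 6927 normalized counts in WT, and 6230, 5725 and 5436 in hnRNPL-deficient libraries. The fold change was -0.34 (SE 0.103, limma adjusted p = 0.0672), and the call was lost in 10 of 18 alternatives, with adjusted p from 0.128 to 0.159 when any WT library or hnRNPL-deficient library 2 or 3 was left out. *Tufm*, the elongation factor that brings aminoacyl-tRNA to the ribosome, is named after its values were seen. It had 5097, 6357 and 5419 in WT and 4365, 4846 and 3142 in hnRNPL-deficient libraries without overlap, and did not pass the test (-0.47, SE 0.167, limma adjusted p = 0.112).

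The rises included factors for initiation and release. *Mtif3*, the mitochondrial initiation factor 3, had 548, 584 and 551 normalized counts in WT, and 761, 792 and 813 in hnRNPL-deficient libraries. Both groups were tight, and the fold change was 0.49 (SE 0.118, limma adjusted p = 0.0326). Without WT library 3 the adjusted p was 0.122. *Mtrf1*, a member of the release factor family, had 215, 215 and 177 in WT and 302, 331 and 252 in hnRNPL-deficient libraries (0.54, SE 0.183, limma adjusted p = 0.0974). This call was lost in 11 of 18 alternatives, with adjusted p from 0.125 to 0.281 when any WT library or hnRNPL-deficient library 1 or 2 was left out.

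*Mettl15*, a methyltransferase that modifies the small subunit ribosomal RNA, had 233, 161 and 186 normalized counts in WT, and 361, 304 and 397 in hnRNPL-deficient libraries. Every hnRNPL-deficient library was above every WT library. The fold change of 0.88 (SE 0.199, limma adjusted p = 0.0266), or 183% of WT, was the largest of the 44 genes and the only rise of at least 1.5-fold.

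**Figure D4:**
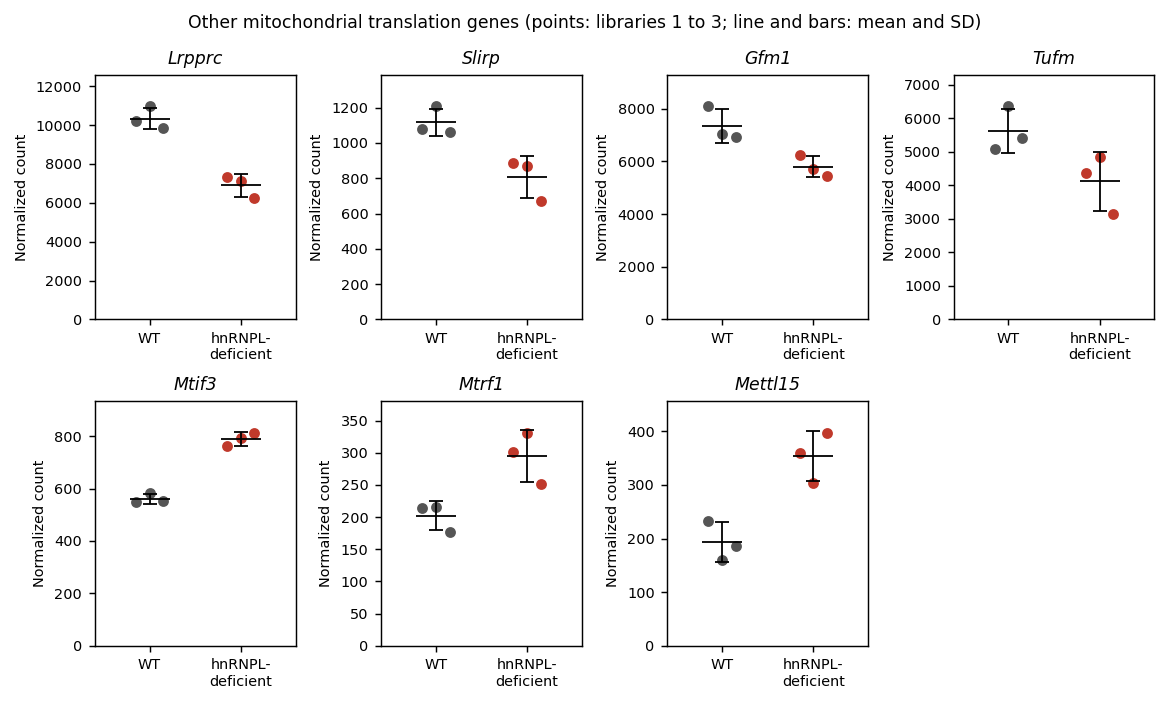
Normalized counts (y axes, from 0) of 7 other genes of mitochondrial translation in WT and hnRNPL-deficient cells; points are libraries 1 to 3 from left to right, lines are means and bars are SDs (n = 3 each). *Lrpprc*, *Slirp*, *Gfm1* and *Tufm* are lower and *Mtif3*, *Mtrf1* and *Mettl15* are higher, with no overlap between the groups.

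Cytosolic ribosomal proteins and nuclear-encoded subunits of the respiratory chain were set beside the members. Of 81 cytosolic ribosomal protein genes 76 had a fold change below 0, with a median of -0.14, and 1 fell. Of 78 respiratory chain genes 49 were below 0, with a median of -0.05, and 1 fell and 3 rose. At an adjusted p under 0.1, 1.23% of the cytosolic and 5.13% of the respiratory chain genes were called. The share was 6.49% for the members and 18.0% for all genes tested. All 3 groups were lowest in hnRNPL-deficient library 3.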

How the data were processed

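RNA-seq of 3 WT and 3 hnRNPL-deficient libraries was analysed. Per the labels and the study's methods, the authors trimmed reads with fastp 0.23.1, aligned them to mm10 with STAR 2.7.9a and counted them by strand with featureCounts. The authors deposited counts divided by DESeq2 1.38.2 size factors, a signal that need not be whole, beside their own test results, which were not used (base mean, log2 fold change, standard error, statistic, p-values). The present tests used limma 3.58.1 on log2(normalized count + 1) (R 4.3.3, mean-variance trend) for 17640 genes averaging 10 or more, and Benjamini-Hochberg adjustment. The threshold was an adjusted p under 0.1, with or without a fold change of 1.5.

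Values of each library came out as whole reads (100% within 0.01), but the automatic test did not read hnRNPL-deficient library 2, so edgeR 4.0.16 and DESeq2 1.42.0 were run on 5 libraries, a choice made with the data in view. At 1.5-fold, edgeR found 1072 genes higher and 707 lower, and DESeq2 1192 and 746. Coordinates came from GENCODE on GRCm38 (17615 of 17640 genes matched), an earlier release than the authors'. In simulated data with 50 genes per fold size, 0 of 50 changes of 1.2-fold, 17 of 1.5-fold, 41 of 2-fold and 50 of 4-fold were recovered, with 12 false calls among 17649 genes. The members and lists were chosen with earlier results of these data known. Genes are named by a rule: the 5 largest changes in each direction, the 5 highest and 3 lowest levels per kilobase, members under the filter, 7 members with a distinct place or role, and called genes of the lists. Alternatives were other pseudocounts, filters, scalings and variance settings, a replicate block, each replicate left out and, added after seeing the data, a correction for GC content and length.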

Additional observations from a re-analysis of the deposited data

How the results depend on the processing

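Counts of members called at an adjusted p under 0.1, which were 4 lower and 1 higher, varied with the setting. They were 10 lower and 2 higher with a correction for GC content and length (13.9% and 10.5% of all genes), 2 lower at an adjusted p under 0.05 (4.68% of all genes), 2 higher with equal totals (2114 of all genes), and 2 to 3 lower and 0 to 3 higher when each replicate was left out. At 1.5-fold, 2 members were lower with the correction, 2 with the correction and the block, and 0 to 1 when each replicate was left out, the 1 being without hnRNPL-deficient replicate 1. The median of the members (-0.07) was -0.13 with the correction, with or without the block. It was also -0.13 by edgeR, run without hnRNPL-deficient replicate 2, and by limma without that replicate. When each replicate was left out the median ran from -0.13 to 0.016, turning above 0 only without hnRNPL-deficient replicate 3. The cause was not tested. *Mrpl39* and *Mrpl15* were called in all 18 alternatives.

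The labels number the replicates and do not say whether same-numbered libraries were paired. Same-numbered libraries had residual correlations of 0.43, 0.32 and 0.07, and whether they shared a batch was not tested. With the replicate block 14 members were lower and 5 higher, and 26 and 6 with the block and the correction. Among all genes these were 16.5% and 16.4% with the block and 24.3% and 16.8% with both.

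Of the other 44 genes (3 lower, 3 higher), 1 was lower without the trend, 6 with the block, 6 with the correction, 12 with both, and 1 to 3 when each replicate was left out, when 1 to 4 were higher. At 1.5-fold (1 lower, 1 higher), 0 were lower with equal totals or quantile normalization, 2 with the correction, with or without the block, and 2 by edgeR, and 2 were higher with equal totals. Leaving out each replicate gave 0 to 2 lower and 1 to 2 higher.

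Fold changes near 0 changed sign. When each replicate was left out, *Mrpl58* ran from -0.10 to 0.014, *Mrps18c* from -0.038 to 0.12, *Mrps30* from -0.080 to 0.061 and *Mrps36* from -0.14 to 0.048. Among these, *Mrpl58* and *Mrps36* were above 0 only without hnRNPL-deficient replicate 3 and *Mrps30* only without that or WT replicate 1, and *Mrps18c* was below 0 only without WT replicate 3 or hnRNPL-deficient replicate 1. With equal totals *Mrpl58* was at 0.0061 and *Mrps30* at 0.041, and with quantile normalization *Mrps30* was at 0.049. In the simulated data, 0 of 50 changes of 1.2-fold and 17 of 50 changes of 1.5-fold were recovered. Far fewer genes changed there than were called here, so these shares need not hold for the real libraries.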
